A study of Homo sapiens with 7 samples.

Results

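Tumour cells carry surface proteins that T cells, natural killer cells and macrophages read as a signal to hold back, and they release adenosine, which has a similar effect. The genes described here are 8 such genes: CD274, PDCD1LG2, CD276, CD47, PVR, TNFRSF14, NT5E and ADORA2B. They were taken by symbol, with no threshold on measured values, from the 57773 rows of a gene count table, and each symbol had 1 row. All 8 passed the filter on low counts that left 16198 genes for testing. The RNA-seq libraries came from the cell line MDA-MB-231, a human triple-negative breast cancer line: 2 are labelled KD and 3 are labelled parent. The labels do not spell out KD, and the treatment protocol shared by all samples speaks of APE1-knockout cells that received wild-type or mutant APE1 from a doxycycline-inducible lentiviral vector. They do not say whether the KD libraries carry such a vector or were given doxycycline, nor whether they come from 1 clone. The series title concerns APE1, the apurinic/apyrimidinic endonuclease of base excision repair, and its contact with G-quadruplexes, folded structures of guanine-rich DNA. The input and APE1 chromatin immunoprecipitation samples of the series were not analysed here.

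Immune checkpoint ligands bind receptors on immune cells and lower their activity. PD-L1 (CD274) and PD-L2 (PDCD1LG2) bind PD-1 on T cells, PVR binds the inhibitory receptor TIGIT and also the activating receptor CD226, TNFRSF14 (HVEM) binds BTLA and CD160, and CD47 binds SIRPA on macrophages as a signal against engulfment. In the adenosine pathway, extracellular ATP is cut to AMP and then to adenosine by CD73, the product of NT5E, and adenosine acts on receptors such as A2B, the product of ADORA2B. PD-L1 and CD73 are known as surface proteins of MDA-MB-231 and of other mesenchymal breast cancer lines.

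Library totals were 14677006 and 15502425 counts in KD, and 14601078 to 18049386 counts in parent. APEX1, the gene for APE1, stood at 43.3 and 48.2 CPM in KD, against 123, 132 and 135 CPM in parent, and was 2.84-fold lower in KD (edgeR quasi-likelihood test, adjusted p = 5.87e-05). CPM are counts relative to the library total after TMM scaling, a correction for differences in composition. Of the markers of a mesenchymal triple-negative line, VIM averaged 2145 CPM in KD and 2257 CPM in parent, ESR1 had 0 counts throughout, and PGR had 2 counts in parent replicate 2 and 0 elsewhere. Of 10 such markers 8 were tested, and 62.5% of those were called, beside 21.5% of all genes. SPARC, CDH1 and ERBB2 were 7.15-, 2.19- and 1.21-fold higher in KD, and CD44 and AXL were 1.27- and 1.25-fold lower. These 5 calls had edgeR adjusted p = 0.00134 to 0.0426. SPARC had only 8 to 14 counts in a parent library. The part of these 5 genes in the results was not tested. Of 14 immune cell markers, 10 had 0 counts in all 5 libraries, among them PTPRC, the leukocyte antigen CD45, and 3 others (CD8A, CD14 and CD68) carried nearly all counts. The summed level of those 14 was 139.7 and 139 CPM in KD and 112 to 133 CPM in parent, most of it from the lysosomal protein gene CD68, which did not pass the test (edgeR adjusted p = 0.0612). CD14 was 1.64-fold lower in KD (edgeR adjusted p = 0.0391) and CD8A did not pass (edgeR adjusted p = 0.0571), and the part of these markers in the results was not tested.

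Of the 8 genes, 4 fell and 1 rose in KD at an adjusted p of 0.05 (edgeR quasi-likelihood test, Benjamini-Hochberg over all 16198 genes). CD274 and NT5E fell by more than 3-fold, CD47 and PVR by about 1.5-fold, and ADORA2B rose by 1.42-fold. Over all tested genes 21.5% were called, 12.4% lower and 9.15% higher. The 8 genes were chosen with earlier results of these data known, so counts and medians describe them only. The KD and parent libraries did not overlap in CPM for 7 of the 8, CD276 being the exception, but this held for 51.4% of all tested genes. The median log2 fold change of the 8 genes was -0.46, beside 0.00 for all genes tested, and their median size regardless of sign was 0.53, beside 0.19. The labels do not say whether libraries come from separate cultures, so the p-values rest on how far these 5 libraries vary, and that variation could be technical. In bulk RNA, fewer cells expressing a gene and less RNA per cell cannot be told apart.

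**Figure D1:**
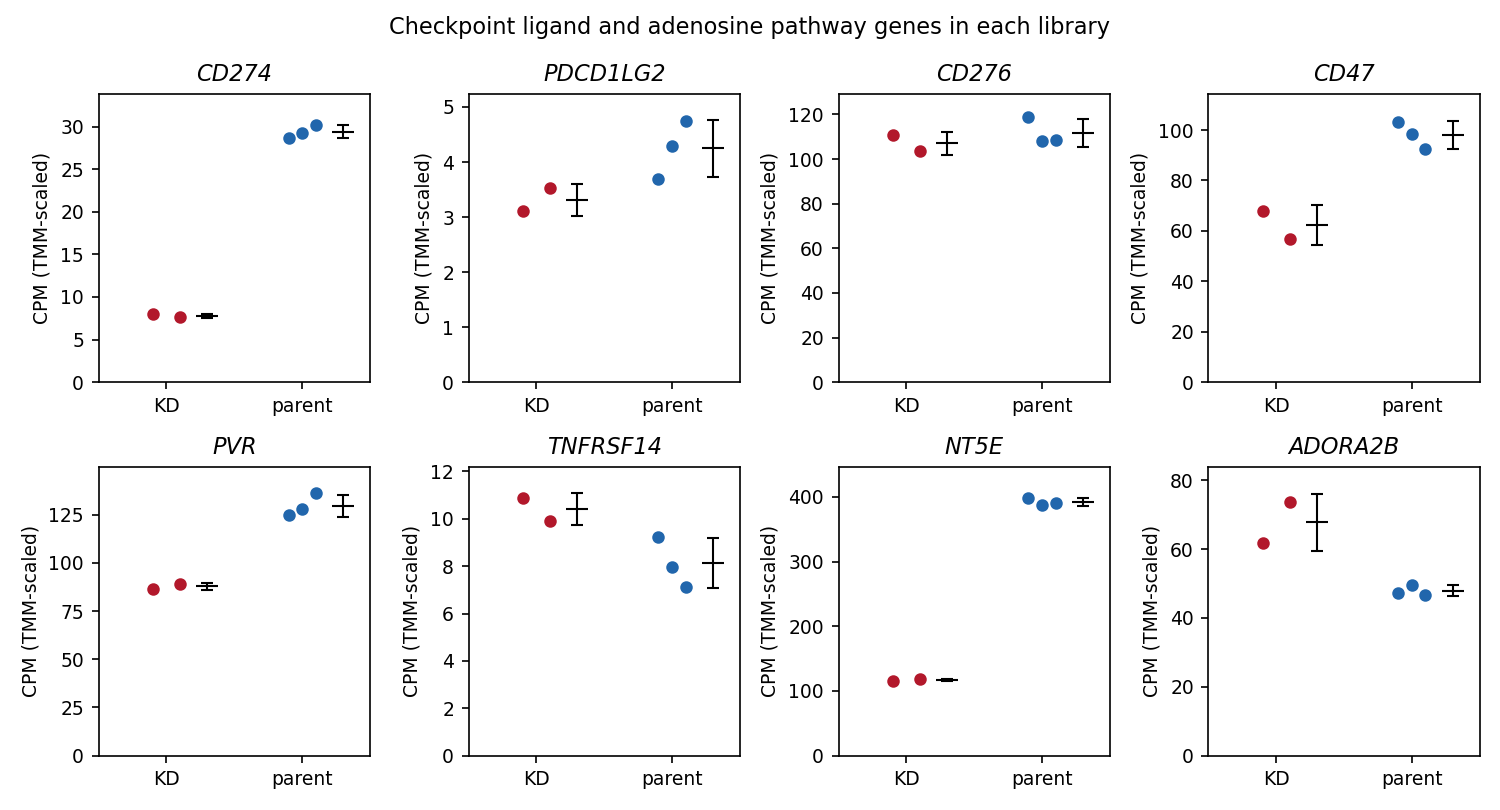
Level of each of the 8 genes in the 2 KD libraries (red) and 3 parent libraries (blue), in TMM-scaled CPM on axes that start at 0; points are libraries and the black bar beside them is the mean with the SD. CD274 and NT5E in KD lie far below parent, CD47 and PVR lie below it, ADORA2B lies above it, and CD276 overlaps.

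CD274, which encodes PD-L1, showed the largest change among the 8. Its level was 7.98 and 7.61 CPM in KD replicates 1 and 2, from 118 and 119 counts, against 28.7, 29.3 and 30.2 CPM in parent replicates 1, 2 and 3, from 450, 429 and 542 counts. Both KD libraries were close to each other and stood below each parent library. The means were 7.80 ± 0.256 CPM in KD and 29.4 ± 0.779 CPM in parent (SD, n = 2 and n = 3), a log2 fold change of -1.91 ± 0.0811 (SE) with a 95% interval of -2.11 to -1.72 (edgeR adjusted p = 4.19e-05). CD274 was 3.77-fold lower in KD, and 3.14% of all tested genes changed by more in either direction. The long non-coding RNA gene INCR1 overlaps both CD274 and PDCD1LG2 in the RefSeq table and has no row in the gene table. Since the strand used in counting is unknown, its reads cannot be told apart from those of either gene, and this limit holds for their ratio too.

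PDCD1LG2, which encodes PD-L2, the other ligand of PD-1, was measured at far fewer counts. It had 46 and 55 counts in KD, which is 3.11 and 3.52 CPM, against 58, 63 and 85 counts in parent, which is 3.70, 4.30 and 4.74 CPM. Both KD values were lower than each parent value, but the gap between KD replicate 2 and parent replicate 1 was smaller than the range within either group. The log2 fold change was -0.36 with a 95% interval of -0.79 to 0.08 and missed the threshold (edgeR adjusted p = 0.215), so a change as large as that of CD274 lies outside the interval while a 1.73-fold fall lies inside it. The ratio of CD274 to PDCD1LG2 in CPM was 2.57 and 2.16 in KD, against 7.76, 6.81 and 6.38 in parent. On the log2 scale with 0.5 CPM added to both genes, the ratio was 1.12 ± 0.154 in KD and 2.66 ± 0.125 in parent (SD), and an exact two-sided permutation test over the 5 libraries gave p = 0.1, the smallest that 2 against 3 libraries allow.

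The CD274 promoter is shown because that gene fell most, and because signals such as interferon-gamma are known to act through it. The sequence covers 250 bases before to 50 bases after the annotated start, is credited to RefSeq (build GRCh38.p14, whereas the submitters' processing notes name hg19), and is written 5′ to 3′ on the strand of the gene. Capitals mark matches to an interferon regulatory factor motif and to a gamma-activated site (GAS) motif. 
CD274, chr9:5450292-5450591, plus strand: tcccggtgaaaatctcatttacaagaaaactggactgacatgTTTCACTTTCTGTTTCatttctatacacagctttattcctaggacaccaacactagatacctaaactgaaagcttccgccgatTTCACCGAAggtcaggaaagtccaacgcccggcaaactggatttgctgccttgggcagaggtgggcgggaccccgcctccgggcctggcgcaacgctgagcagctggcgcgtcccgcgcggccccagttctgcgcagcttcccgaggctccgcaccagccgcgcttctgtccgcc
The search took for the first motif 2 copies of GAAA with 2 bases of any kind between them, on both strands, and found it at 2 overlapping places on the strand opposite to the gene, 208 and 202 bases before the start. It used TTCNNNGAA, which reads the same on both strands, for the second, and found it at 1 place, 125 bases before the start. Of the 35116 promoter windows of this length in the RefSeq table, 3.57% hold the first motif and 7.66% the second. Among the 8 genes 7 had a window, with 2 windows for CD276, and CD274 was the 1 gene among them with either motif. TGACTCA, the AP-1 motif, and the NF-kB motif (GGG, then AC, AA or GA, then TTTCC, both strands) were in 4.95% and 0.444% of all windows and in none of those of the 7 genes. A match is a description of letters and shows no binding.

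Of 18 listed neighbours of CD274 on the short arm of chromosome 9, 11 were tested and 1 passed the edgeR test, which is 9.09% of those tested, beside 21.5% of all genes. JAK2, the kinase that signals below the interferon-gamma receptor, was at 3.11 and 3.78 CPM in KD, against 3.83, 3.61 and 4.41 CPM in parent, with a log2 fold change of -0.20 and a 95% interval of -0.64 to 0.24 (edgeR adjusted p = 0.494). PLGRKT, the plasminogen receptor gene listed just before CD274, was at 6.56 and 6.33 CPM in KD, against 5.93, 7.02 and 5.13 CPM in parent (edgeR adjusted p = 0.716). ERMP1, an endoplasmic reticulum peptidase gene, was the one that passed: it was at 22.6 CPM in both KD libraries, against 27.8 to 33.8 CPM in parent, and was 1.35-fold lower in KD (edgeR adjusted p = 0.0182). That call was lost without KD replicate 1, KD replicate 2 or parent replicate 2 (adjusted p = 0.0620 to 0.0988), which left 0 of the neighbours called in each of those 3 fits, where 10.8%, 12.3% and 12.6% of all tested genes were called. The median log2 fold change of the 11 was -0.20, beside 0.00 for all genes tested, and 9 of the 11 had a negative value. The list of neighbours was written with earlier results of these data known.

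**Figure D2:**
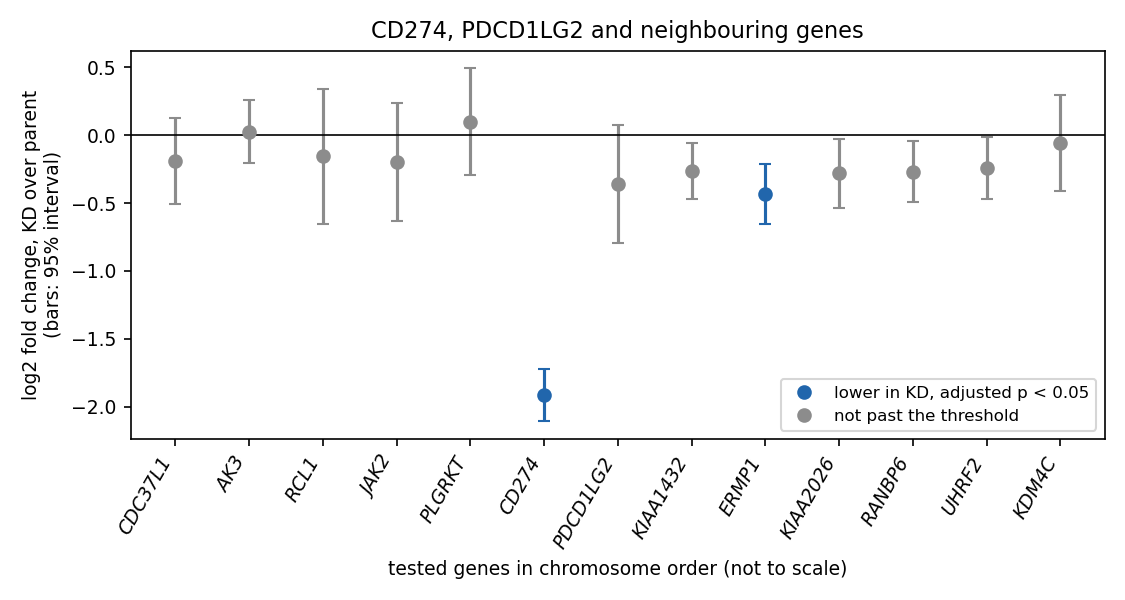
Log2 fold change of KD over parent, with its 95% interval, for CD274, PDCD1LG2 and the 11 tested neighbours in their order on chromosome 9 (not to scale); blue passed an adjusted p of 0.05 and grey did not. CD274 stands at -1.91, while each of the other genes lies between -0.43 and 0.10.

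CD276 and TNFRSF14 did not pass the test. CD276 encodes B7-H3, a member of the B7 family found on many carcinomas. It stood at 111 and 103 CPM in KD, against 119, 108 and 108 CPM in parent, and the groups overlapped. The means were 107 ± 5.23 CPM in KD and 112 ± 6.18 CPM in parent (SD), and the 95% interval of the log2 fold change ran from -0.22 to 0.09 (edgeR adjusted p = 0.552), so a fall of more than 1.16-fold lies outside it. TNFRSF14, which encodes HVEM, was at 10.9 and 9.92 CPM in KD, from 161 and 155 counts, against 9.25, 7.98 and 7.14 CPM in parent, from 145, 117 and 128 counts. Both KD values lay above each parent value, by less than the range within parent. The log2 fold change was 0.36 with a 95% interval of 0.02 to 0.69, and it did not pass after adjustment over all genes (edgeR adjusted p = 0.120). An antisense gene, TNFRSF14-AS1, overlaps TNFRSF14 in the RefSeq table, and without knowledge of the strand used in counting its reads cannot be told apart from those of TNFRSF14.

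CD47, the ligand of SIRPA, and PVR, the ligand of TIGIT and CD226, both fell. CD47 was at 68.0 and 56.8 CPM in KD, against 103, 98.5 and 92.4 CPM in parent. Both KD libraries lay below each parent library, although they differed from each other by more than the parent libraries did. The means were 62.4 ± 7.91 CPM in KD and 98.1 ± 5.45 CPM in parent (SD), and CD47 was 1.57-fold lower in KD, with a log2 fold change of -0.65 ± 0.0925 (SE, 95% interval -0.87 to -0.43, edgeR adjusted p = 0.00366).

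PVR, which encodes the poliovirus receptor CD155, was at 86.7 and 89.3 CPM in KD, against 125, 128 and 136 CPM in parent. The KD libraries lay close together and below each parent library. The means were 88.0 ± 1.84 CPM in KD and 129.6 ± 5.80 CPM in parent (SD), and PVR was 1.47-fold lower in KD, with a log2 fold change of -0.56 ± 0.0577 (SE, 95% interval -0.70 to -0.42, edgeR adjusted p = 0.00100). CEACAM19 overlaps PVR in the RefSeq table and had at most 31 counts in a library, against at least 1282 counts of PVR.

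The adenosine-producing enzyme gene and the adenosine receptor gene moved in opposite directions. NT5E, which encodes CD73, was at 116 and 119 CPM in KD, from 1717 and 1854 counts, against 399, 387 and 390.0 CPM in parent, from 6256, 5678 and 6990 counts. Libraries within each group agreed closely and the groups lay far apart. The means were 117 ± 1.81 CPM in KD and 392 ± 6.16 CPM in parent (SD), and NT5E was 3.34-fold lower in KD (95% interval 3.09 to 3.61), with a log2 fold change of -1.74 ± 0.0467 (SE, edgeR adjusted p = 8.41e-06). ADORA2B, which encodes the A2B receptor, was at 61.9 and 73.7 CPM in KD, against 47.2, 49.7 and 46.7 CPM in parent. Both KD libraries lay above each parent library, and they differed from each other by more than the parent libraries did. The means were 67.8 ± 8.34 CPM in KD and 47.9 ± 1.60 CPM in parent (SD), and ADORA2B was 1.42-fold higher in KD, with a log2 fold change of 0.50 ± 0.0883 (SE, 95% interval 0.29 to 0.71, edgeR adjusted p = 0.00856).

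**Figure D3:**
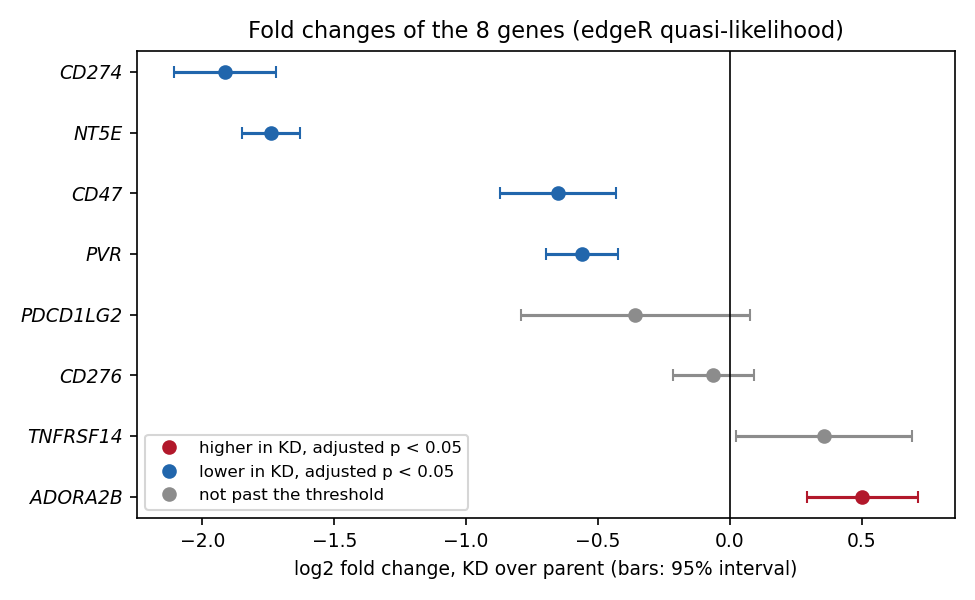
Log2 fold change of KD over parent for the 8 genes, with bars for the 95% interval of the edgeR fit; red and blue passed an adjusted p of 0.05 as higher and lower in KD, and grey did not pass. The intervals of CD274 and NT5E lie below -1.6, and those of CD276 and PDCD1LG2 include 0.

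Promoters of 3 called genes are shown for a letter pattern that can form a G-quadruplex, the DNA structure named in the series title. The pattern was 4 runs of GGG or longer separated by 1 to 7 bases, searched on both strands, and capitals mark the bases it covers. The windows are those of the RefSeq table (GRCh38.p14), written 5′ to 3′ on the strand of the gene. 
NT5E, chr6:85449833-85450132, plus strand: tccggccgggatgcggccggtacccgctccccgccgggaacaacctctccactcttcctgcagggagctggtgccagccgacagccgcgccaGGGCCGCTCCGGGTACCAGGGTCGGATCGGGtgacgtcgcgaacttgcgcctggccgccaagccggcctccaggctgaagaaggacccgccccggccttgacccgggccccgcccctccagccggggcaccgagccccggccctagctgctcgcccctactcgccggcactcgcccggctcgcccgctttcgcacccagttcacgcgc
CD47, chr3:108090982-108091281, minus strand: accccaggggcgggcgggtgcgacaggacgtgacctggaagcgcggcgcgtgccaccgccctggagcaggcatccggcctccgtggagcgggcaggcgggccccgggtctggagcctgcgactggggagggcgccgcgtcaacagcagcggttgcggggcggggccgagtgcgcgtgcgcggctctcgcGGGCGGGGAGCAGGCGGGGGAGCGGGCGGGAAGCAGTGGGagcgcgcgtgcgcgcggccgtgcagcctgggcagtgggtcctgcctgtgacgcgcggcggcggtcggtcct
ADORA2B, chr17:15944880-15945179, plus strand: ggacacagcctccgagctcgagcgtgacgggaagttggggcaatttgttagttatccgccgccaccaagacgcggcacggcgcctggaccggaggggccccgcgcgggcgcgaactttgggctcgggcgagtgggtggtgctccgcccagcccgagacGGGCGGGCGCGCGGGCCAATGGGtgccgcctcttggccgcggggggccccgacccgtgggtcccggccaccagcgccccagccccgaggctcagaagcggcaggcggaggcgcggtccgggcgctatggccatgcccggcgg
The pattern covers 31 bases of the NT5E window, 40 of the CD47 window and 23 of the ADORA2B window, on the printed strand in each. Of all 35116 windows 25.0% hold it. Among the 7 of the 8 genes with a window, PDCD1LG2 having none, 4 hold it. These are NT5E and CD47, which fell, ADORA2B, which rose, and CD276, which did not pass the test. This count is by gene, whereas the 25.0% is by window, and CD276 holds the pattern in window 1 but not in window 2. CD274, PVR and TNFRSF14 have no match in these windows. Whether the pattern has a part in any of these changes was not tested. The GC content of the windows was 75.0% for NT5E, 79.0% for CD47, 75.7% for ADORA2B and 57.3% for CD274. The TEAD motif GGAATG was in the windows of PVR and TNFRSF14 and in 14.0% of all windows. The hypoxia response motifs ACGTG and GCGTG were in windows of CD47, NT5E, CD276 and ADORA2B and in 48.4% of all windows.

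The other genes that make, move, break down or sense adenosine also moved in both directions. Of 27 listed genes 16 were tested, of which 4 rose and 3 fell (edgeR adjusted p of 0.05, beside 9.15% higher and 12.4% lower over all genes), with a median log2 fold change of -0.08. Leaving out parent replicate 1, 2 or 3 gave 8, 5 and 5 calls, beside 21.2%, 12.6% and 16.9% of all genes. The list was written with earlier results of these data known, so its number of calls is a description only. ENPP1, an ectoenzyme that cuts ATP to AMP, was at 42.9 and 40.6 CPM in KD, against 173, 164 and 144 CPM in parent. Both KD libraries lay far below parent, and ENPP1 was 3.84-fold lower in KD (edgeR adjusted p = 5.01e-05). CD38, an ectoenzyme that consumes NAD and can feed the same route, had 0 counts in both KD libraries, against 16, 18 and 21 counts in parent. Against a floor of 3 counts over both KD libraries, it was at least 11.6-fold lower in KD, against 1.14 ± 0.107 CPM in parent (SD, edgeR adjusted p = 0.00238). That bound covers counting error only, and a listed 0 can be an estimate that fell to 0.

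ADORA1, which encodes the A1 receptor, an adenosine receptor coupled to inhibitory G proteins, rose. It was at 19.5 and 19.6 CPM in KD, against 5.74, 5.11 and 5.36 CPM in parent, so that it was 3.62-fold higher in KD (edgeR adjusted p = 8.28e-05). Both adenosine receptor genes with more than 1 CPM, ADORA1 and ADORA2B, were thus higher in KD. ADORA2A had 4 to 12 counts in a library and ADORA3 at most 5, and no difference was detectable for ADORA2A at this depth (edgeR adjusted p = 0.807). DPP4 (CD26), a peptidase that also anchors adenosine deaminase at the cell surface, was at 31.7 and 24.3 CPM in KD, against 7.40, 5.93 and 6.36 CPM in parent, and was 4.26-fold higher in KD (edgeR adjusted p = 0.000239). ADA, adenosine deaminase itself, which converts adenosine to inosine, was 1.54-fold higher at 7.44 ± 0.568 CPM in KD and 4.83 ± 0.503 CPM in parent (SD, edgeR adjusted p = 0.0258). The ADA call was lost without KD replicate 1, KD replicate 2, parent replicate 2 or parent replicate 3 (adjusted p = 0.0662 to 0.138), in DESeq2 (adjusted p = 0.0762) and with a replicate block (adjusted p = 0.0604).

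Of the adenosine transporter genes, SLC29A1 fell and SLC29A3 rose. SLC29A1, the main equilibrative nucleoside transporter, fell by 1.18-fold, at 155 and 155 CPM in KD, against 183, 179.6 and 187 CPM in parent (edgeR adjusted p = 0.0100), a call that was lost without KD replicate 1 (adjusted p = 0.0937) and without KD replicate 2 (adjusted p = 0.0866). SLC29A3, a transporter of inner membranes, rose by 1.41-fold (edgeR adjusted p = 0.0278), and lost its call without KD replicate 1, KD replicate 2, parent replicate 2 or parent replicate 3 (adjusted p = 0.0748 to 0.121), in DESeq2 (adjusted p = 0.0619) and when low counts were left unfiltered (adjusted p = 0.0507). ENTPD1 (CD39), which cuts ATP and ADP and supplies AMP to CD73, was at 15.5 ± 1.03 CPM in KD and 14.7 ± 0.729 CPM in parent (SD, edgeR adjusted p = 0.654), with a 95% interval of -0.16 to 0.30 on the log2 scale. ADK, the kinase that turns adenosine back to AMP inside the cell, was at 58.2 ± 2.59 CPM in KD and 59.8 ± 1.76 CPM in parent (SD, edgeR adjusted p = 0.731).

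**Figure D4:**
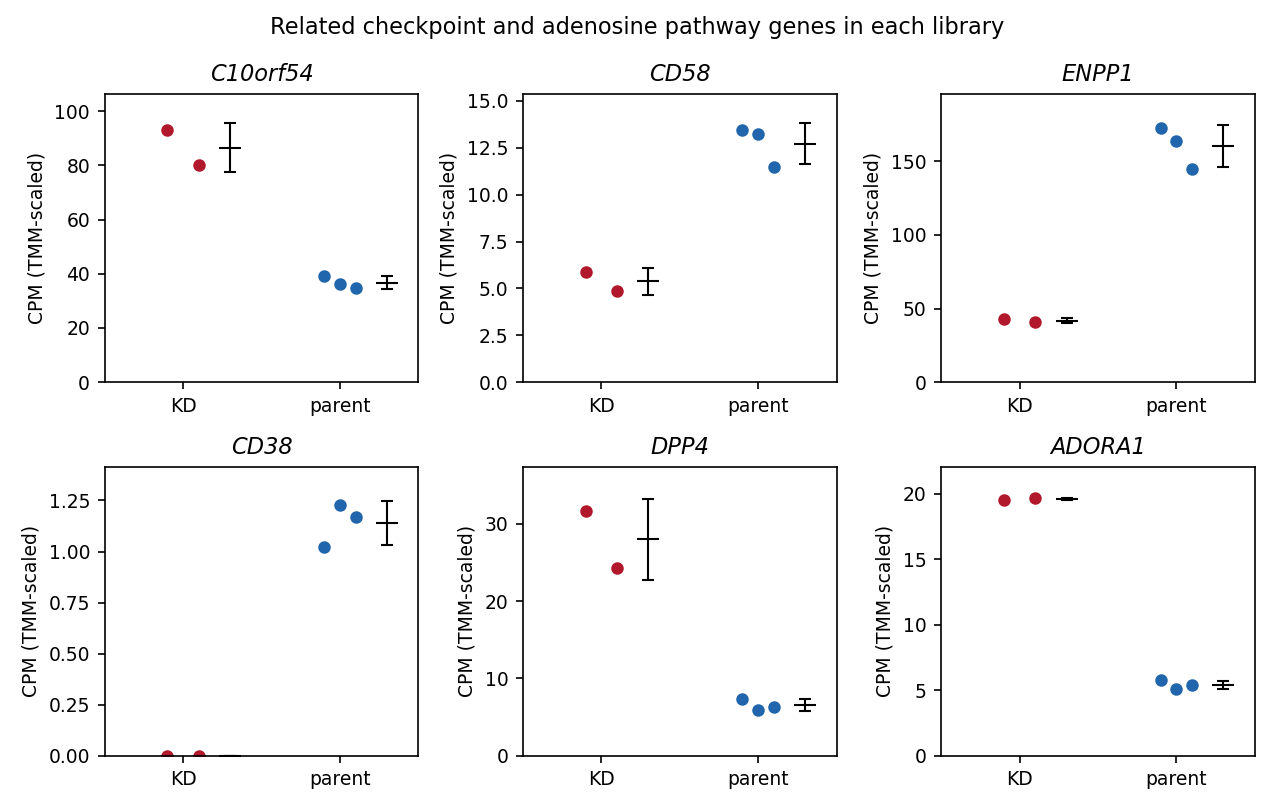
Level in each KD (red) and parent (blue) library of 6 further genes of the checkpoint and adenosine lists, in TMM-scaled CPM on axes that start at 0, with the mean and SD in black. C10orf54, DPP4 and ADORA1 lie higher in KD, and CD58, ENPP1 and CD38 lie lower, with CD38 at 0 in both KD libraries.

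Further ligands of T cell and natural killer cell receptors moved both ways. Of 30 listed genes 29 had a row, 17 were tested, 3 rose and 2 fell (edgeR adjusted p of 0.05), which is 29.4% called, beside 21.5% of all genes, with a median log2 fold change of 0.12. Leaving out parent replicate 1, 2 or 3 gave 5, 2 and 4 calls, beside 21.2%, 12.6% and 16.9% of all genes. The list was written with earlier results of these data known, so its share of calls is a description only. C10orf54, which encodes the checkpoint protein VISTA, was at 93.0 and 80.2 CPM in KD, against 39.3, 36.1 and 34.8 CPM in parent. Its levels did not overlap, and it was 2.35-fold higher in KD (log2 fold change 1.24, 95% interval 1.02 to 1.45, edgeR adjusted p = 0.000255). CD58, the ligand of the T cell adhesion receptor CD2 and thus a costimulator, was at 5.88 and 4.86 CPM in KD, against 13.5, 13.2 and 11.5 CPM in parent, and was 2.37-fold lower in KD (edgeR adjusted p = 0.00143).

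The other 3 calls of that list were smaller and less stable. ICOSLG, the ligand of the costimulatory receptor ICOS, was 1.34-fold higher at 32.7 ± 1.64 CPM in KD and 24.3 ± 2.54 CPM in parent (SD, edgeR adjusted p = 0.0207), and lost its call without KD replicate 1, KD replicate 2, parent replicate 2 or parent replicate 3 (adjusted p = 0.0580 to 0.127). PVRL1 (nectin 1) was 1.28-fold higher (edgeR adjusted p = 0.0272), and PVRL3 (nectin 3), a relative of PVR, was 1.21-fold lower (edgeR adjusted p = 0.0450). PVRL1 lost its call without KD replicate 1, KD replicate 2 or parent replicate 2 (adjusted p = 0.0765 to 0.157), in DESeq2 (adjusted p = 0.0547) and when low counts were left unfiltered (adjusted p = 0.0672), and PVRL3 lost it under 10 of 13 alternatives, each of the 5 left-out libraries among them. PVRL2 (nectin 2), the other ligand shared by TIGIT and CD226, was at 196 and 189 CPM in KD, against 208, 179 and 187 CPM in parent (edgeR adjusted p = 0.948, 95% interval of the log2 fold change -0.16 to 0.17). HLA-E, the ligand of the natural killer receptor NKG2A, stood at 111 ± 7.73 CPM in KD and 93.9 ± 6.62 CPM in parent (SD, edgeR adjusted p = 0.0721), and its near relatives make its count uncertain. The B7 genes CD80, CD86, VTCN1 and HHLA2 had 0 counts in all 5 libraries.

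Of 11 genes for receptors of the ligands, 6 had 0 counts in all libraries, PDCD1, TIGIT and BTLA among them, and 1 was tested. The summed level of the 11 was 5.00 and 6.14 CPM in KD and 3.68 to 4.41 CPM in parent, most of it from the 1 tested gene. The tested gene was SIRPA, the receptor of CD47, at 3.85 and 5.25 CPM in KD, against 3.12, 2.66 and 3.29 CPM in parent (edgeR adjusted p = 0.0865).

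The calls among genes known to set the amount of PD-L1, together with the interferon-gamma route, went in both directions. Of 25 tested genes 4 rose and 5 fell (edgeR adjusted p of 0.05), which is 36.0% called, beside 21.5% of all genes, and the other 16 did not pass. Their median log2 fold change was 0.01. The list was written with earlier results of these data known, so its share of calls is a description only. Leaving out parent replicate 1, 2 or 3 gave 8, 5 and 5 calls, beside 21.2%, 12.6% and 16.9% of all genes. With low counts left unfiltered there were 5 calls, beside 9.58% of all genes. IFNGR1, the ligand-binding chain of the interferon-gamma receptor, was 1.56-fold higher at 72.6 ± 8.35 CPM in KD and 46.4 ± 2.04 CPM in parent (SD, edgeR adjusted p = 0.00307). HIF1A, the hypoxia-inducible transcription factor, was 1.29-fold higher at 766 ± 39.6 CPM in KD and 594 ± 13.1 CPM in parent (SD, edgeR adjusted p = 0.00366). MYC, a growth-promoting transcription factor, was 1.60-fold lower at 71.4 ± 4.39 CPM in KD and 114 ± 7.70 CPM in parent (SD, edgeR adjusted p = 0.00137). CMTM4, a membrane protein that protects PD-L1 from breakdown, was 1.39-fold lower at 40.6 and 37.0 CPM in KD, against 55.0, 51.6 and 55.3 CPM in parent (edgeR adjusted p = 0.00518). Its relative CMTM6 was 1.14-fold lower (edgeR adjusted p = 0.0465) and lost that call without any 1 of the 5 libraries (adjusted p = 0.0698 to 0.295). SOCS3, a feedback inhibitor of cytokine signalling, was 1.26-fold lower (edgeR adjusted p = 0.0125), a call lost without KD replicate 1 (adjusted p = 0.0628) or KD replicate 2 (adjusted p = 0.0966). The other calls were STAT3 and STUB1, which were higher in KD, and NFKB1, which was lower. Each changed by at most 1.21-fold, and each call was lost without 4 or 5 of the libraries in turn.

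IRF1 and JAK1, which act in the interferon-gamma route, did not pass the test. IRF1 belongs to the factor family whose motif is marked in the CD274 sequence. It was at 67.3 and 65.6 CPM in KD, against 57.0, 60.5 and 64.5 CPM in parent (edgeR adjusted p = 0.251). JAK1 was at 235 ± 4.85 CPM in KD and 237 ± 8.63 CPM in parent (SD, edgeR adjusted p = 0.896).

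**Figure D5:**
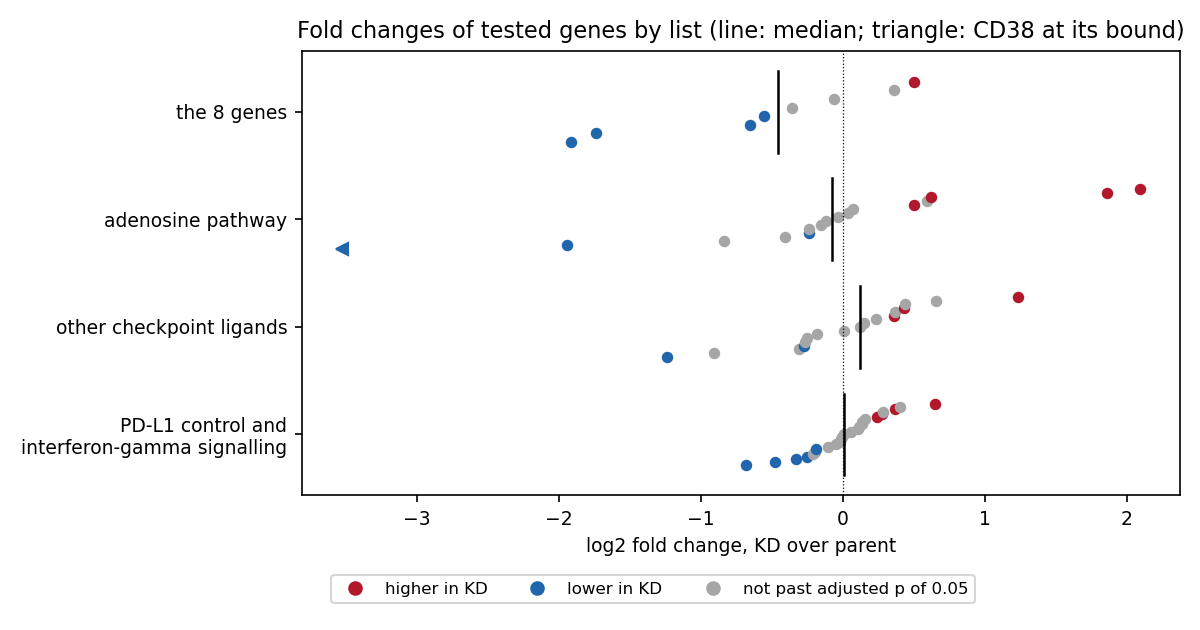
Log2 fold change of KD over parent for each tested gene of 4 lists; red rose and blue fell at an adjusted p of 0.05, grey did not pass, and the black line is the median of the list. CD38 is drawn as a triangle at its bound of -3.53, since it had 0 counts in KD, while ENPP1, CD274 and NT5E lie at -1.94, -1.91 and -1.74, and DPP4 and ADORA1 at 2.09 and 1.86.

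Profiles over the 5 libraries were compared by the Euclidean distance between centred log2 CPM, among 10743 other protein-coding genes with a mean of at least 5 CPM. The genes nearest to CD274 were HAS2 (distance 0.136), NT5E (0.161) and PLXNA1 (0.170), so that a member of the 8 was the second nearest of all. Those nearest to NT5E were HAS2 (0.101), VNN1 (0.145) and DOCK4 (0.145). HAS2, a hyaluronan synthase gene, averaged 5.29 CPM in KD and 19.8 CPM in parent. The genes nearest to CD47 were GLCE, ASAP2 and PDK3 (0.0604 to 0.0816), and those nearest to PVR were FUT10, SH3D19 and GLIPR1 (0.0334 to 0.0478). The genes nearest to ADORA2B were FAM78A, EMC9 and ASPSCR1 (0.0513 to 0.0806). For the members that did not pass the test, the nearest genes were AKAP11 for PDCD1LG2, CTDSPL for CD276 and IRF2BP2 for TNFRSF14 (0.0136 to 0.0511). With 5 libraries, of which 2 are KD, such a distance mostly reflects the size of the KD change.

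The authors' deposited table of their own comparison gave the same direction for all 8 genes. That comparison is of the same series, so it is no independent measurement. In the authors' deposited table the log2 fold change was -1.93 for CD274, -1.75 for NT5E, -0.66 for CD47, -0.57 for PVR and 0.49 for ADORA2B, and the largest difference from the values above over the 8 genes was 0.011.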

How the data were processed

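Group membership came from the sample titles. Per the labels' protocols, column-purified total RNA went to a sequencing core. The authors' deposited gene and transcript tables hold expected counts as whole numbers, whose totals per library are equal. STAR, DESeq2 and hg19 appear in the submitters' processing notes without versions, and the counter, annotation and strand setting are unstated in the labels and headers. Since no table used here links transcripts to genes, the transcript table was left out, and no lengths were used: the ratio of CD274 to PDCD1LG2 is compared between libraries, not read as relative abundance. Per the file headers, the authors' table of their comparison gives a mean signal (normalised counts), log2 fold changes, standard errors, a test score and p-values.

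edgeR 4.0.16 (R 4.3.3) was used for filtering (filterByExpr, minimum count 10, minimum total 15), TMM scaling and a quasi-likelihood test of KD over parent without covariates, on 3 residual degrees of freedom. P-values were adjusted by Benjamini-Hochberg over all tested genes, and calls were made at 0.05. Standard errors were derived from the log2 fold change and F. P-values and intervals used the total degrees of freedom of the fit, which add information shared across genes to the 3 residual ones. Pairs of libraries within a group differed by more than sampling noise (chi-square per degree of freedom at least 4.03). The code was tested on simulated data.

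Members and gene lists were chosen with earlier results of these data known. Named genes are the members, APEX1, up to 6 list genes with the smallest adjusted p past the threshold, up to 3 abundant ones that missed it, and the 3 nearest profiles per member (pseudocount 0.5 CPM). CMTM6, STUB1, NFKB1, SLC29A3, IRF1, ENTPD1, ADORA2A, ADORA3, PLGRKT and JAK2 were named after their values were seen. Alternatives were other scalings and filters, DESeq2 1.42.0, limma 3.58.1, a replicate block and leaving out each library. Motifs were searched in RefSeq promoter windows. The values of 1 listed gene are not reported here.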

Additional observations from a re-analysis of the deposited data

How the results depend on the processing

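The calls on the 8 genes did not depend on the processing within what was tried. Under each alternative that kept both KD libraries, 1 member rose and 4 fell at an adjusted p of 0.05. Between 9.58% and 24.7% of all tested genes were called in those fits. Each of the 8 kept its sign under all 13 alternatives. The highest adjusted p over the alternatives was 0.000837 for CD274, 0.000290 for NT5E, 0.0202 for CD47, 0.0141 for PVR and 0.0417 for ADORA2B, and the lowest was 0.129 for PDCD1LG2, 0.292 for CD276 and 0.0574 for TNFRSF14. With 1 library left out, the log2 fold change of CD47 ran from -0.79 to -0.53 and that of ADORA2B from 0.37 to 0.62. The log2 ratio of CD274 to PDCD1LG2 differed by -1.65 to -1.43. Where 1 KD library was left, it was assumed to vary like the parent libraries.

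Counts over many genes moved more. With 1 library left out, the number of all genes called ran from 1823 to 3383, beside 3485, the lowest without KD replicate 1, with 2076 without KD replicate 2 and 2029 without parent replicate 2. With 1 parent library left out, 12.6% to 21.2% of all tested genes were called. In those fits the calls in the list of other checkpoint ligands ran from 2 to 5. They ran from 5 to 8 in the adenosine list and in the list of PD-L1 control, and from 0 to 1 among the neighbours of CD274. With no filter on low counts, 3 other checkpoint ligands and 5 genes of PD-L1 control were called, beside 9.58% of all tested genes. With the replicate block, 8 other checkpoint ligands and 2 neighbours of CD274 were called, beside 24.7% of all tested genes (3952). That fit was over replicate numbers 1 and 2 and thus without parent replicate 3. The numbers are not known to pair samples: the difference between replicates 1 and 2 had a correlation of 0.0667 across genes between KD and parent. Depth limits PDCD1LG2 most, with 46 to 85 counts in a library.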
